A study of Rattus norvegicus with 6 samples.

Results

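The 37 genes described here were taken by name as genes of the liver's stellate cells and pericytes (12 genes), its extracellular matrix (12 genes) and its sinusoidal and other endothelium (13 genes). Of the 15645 rat genes that a probe could be tied to, 32 were among these 37. Col4a2, Lox, Stab1, Stab2 and Vwf had no such probe and are not analysed here. Thy1 and Lum had 1 probe each, which was not well above background on any of the 6 arrays. The remaining 30 genes were well above background on all 6 arrays, and all 30 entered the test.

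Total RNA from the livers of 6 male Sprague-Dawley (Crl:CD(SD)) rats, bought at 5 weeks of age, was hybridised to Agilent 1-colour arrays with 1 animal per array. The vehicle group (3 animals) received corn oil, and the other group (3 animals) received TBBC at 300 mg/kg/day. TBBC, in full thiobis(tert-butyl-m-cresol), is a phenolic antioxidant used in rubber and plastics. The length of dosing is not settled by the labels, which give 28 days in the design text and 9 weeks in the treatment protocol.

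Hepatic stellate cells lie between hepatocytes and the sinusoids. At rest they store retinyl esters, and in injured liver they can turn into contractile, collagen-secreting myofibroblasts under signals such as transforming growth factor beta and platelet-derived growth factor. Pericytes, their relatives around other small vessels, share much of their gene expression. Liver sinusoidal endothelial cells line the sinusoids without an organised basement membrane and clear macromolecules and immune complexes from blood through scavenger and Fc receptors, while endothelium of larger vessels carries more of the adherens junction and angiopoietin receptor genes. The matrix genes encode the collagens, glycoproteins and proteoglycans around these cells and the enzymes and inhibitors that remodel them.

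Promoter sequences are shown for Rgs5, the member that rose, and for Acta2, the classic marker of activated stellate cells, with matches to CAGAC, a short motif that SMAD proteins of the transforming growth factor beta pathway can bind. Pdgfrb, the member that fell, is not in the promoter table. Both are the 250 bases upstream of the gene start in RefSeq on the assembly GRCr8, printed 5′ to 3′ on the gene's strand, with CAGAC on either strand (GTCTG on the other) in capitals. Rgs5 lies on the plus strand and its window is chr13:84380827-84381076. Acta2 lies on the minus strand and its window is chr1:241172504-241172753.
Rgs5: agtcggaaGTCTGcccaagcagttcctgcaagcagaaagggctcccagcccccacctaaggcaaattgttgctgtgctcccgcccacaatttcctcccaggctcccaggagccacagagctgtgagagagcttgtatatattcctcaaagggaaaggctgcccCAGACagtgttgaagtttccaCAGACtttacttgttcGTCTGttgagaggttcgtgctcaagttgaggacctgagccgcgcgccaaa
Acta2: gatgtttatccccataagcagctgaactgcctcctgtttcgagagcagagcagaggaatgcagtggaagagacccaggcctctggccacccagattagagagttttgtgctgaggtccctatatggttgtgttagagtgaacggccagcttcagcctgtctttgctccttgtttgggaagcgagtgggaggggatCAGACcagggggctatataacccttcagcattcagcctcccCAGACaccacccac
The Rgs5 window held 4 matches, at positions -242 to -238, -87 to -83, -66 to -62 and -50 to -46 relative to the gene start. The Acta2 window held 2, at -55 to -51 and -14 to -10. RefSeq promoters were in hand for 22 of the 37 members, and CAGAC was found in 11 of these 22 (50%) against 11740 of 27457 rat promoters of the same length (42.8%). The other members with a match were Col1a2, Eng, Lum, Lyve1, Pdgfra, Sparc, Stab1, Stab2 and Tie1. The AP-1 motif TGANTCA, searched on both strands, was found in 1 of 22 members, Pdgfra, and in 6.36% of all promoters. The exact consensus of the CArG box, which serum response factor binds, was found in none of the 22 and in 1.5% of all promoters; CArG boxes with a mismatch, which smooth muscle genes such as Acta2 can carry, were not searched for. A match describes letters in this window and not a bound site.

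The signals were compared on a log2 scale relative to each array's 75th percentile, so that 0 is the level of the 75th percentile and a difference of 1 is a 2-fold change. Differences are TBBC minus vehicle with the standard error (SE) from limma, and p-values were adjusted by the Benjamini-Hochberg method over all 29326 features tested, with a threshold of 0.05. The 75th percentile of signal ranged from 465.2 to 638.2 across arrays, and 36919 to 39386 probes on each array gave a signal well above background. Across all tested features 902 passed, 3.08%, of which 54.5% were higher with TBBC. That share was 70.9% with median centring and 80.7% with scaling to spike-in controls, and spike-in scaling moved the median of all features up by 0.21. All vehicle arrays came from 1 slide and scan and all TBBC arrays from another, so slide, scan and treatment cannot be told apart. All 15 hepatocyte markers on the list passed the filter. The filter asks only for signal above background, and 15 of 17 macrophage markers with a probe passed too, so passing does not identify the tissue. The brightest of the 15 hepatocyte markers had a mean of 10.2, beside a highest mean of 10.3 over all named genes.

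Most of these genes moved little with TBBC. Rgs5, a regulator of G protein signalling that marks pericytes, rose 1.93-fold, and Pdgfrb, the receptor through which platelet-derived growth factor acts on stellate cells and pericytes, fell 1.66-fold. The remaining 28 of 30 did not pass. The share of members that rose was 1 of 30 (3.33%) beside 1.88% of all 11235 named genes, and the share that fell was 1 of 30 (3.33%) beside 1.29%; in either direction 3.17% of named genes passed. These shares lie near the background, with 1 gene behind each. The median difference of the 30 was -0.02, and that of all named genes was -0.02. Positive and negative differences were evenly split, at 15 and 15, and 52.5% of named genes were negative. The vehicle and TBBC values did not overlap for 5 members (16.7%), fewer than the 31.2% of named genes. They were Rgs5, which was higher, and Pdgfrb, Acta2, Fn1 and, on the probe used, Tek, which were lower. A second Tek probe went the other way, with a difference of 0.58. The same 5 members had an unadjusted p under 0.05, a level that 22.3% of named genes reached. In whole liver, fewer cells of a type and less RNA per cell cannot be told apart.

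**Figure D1:**
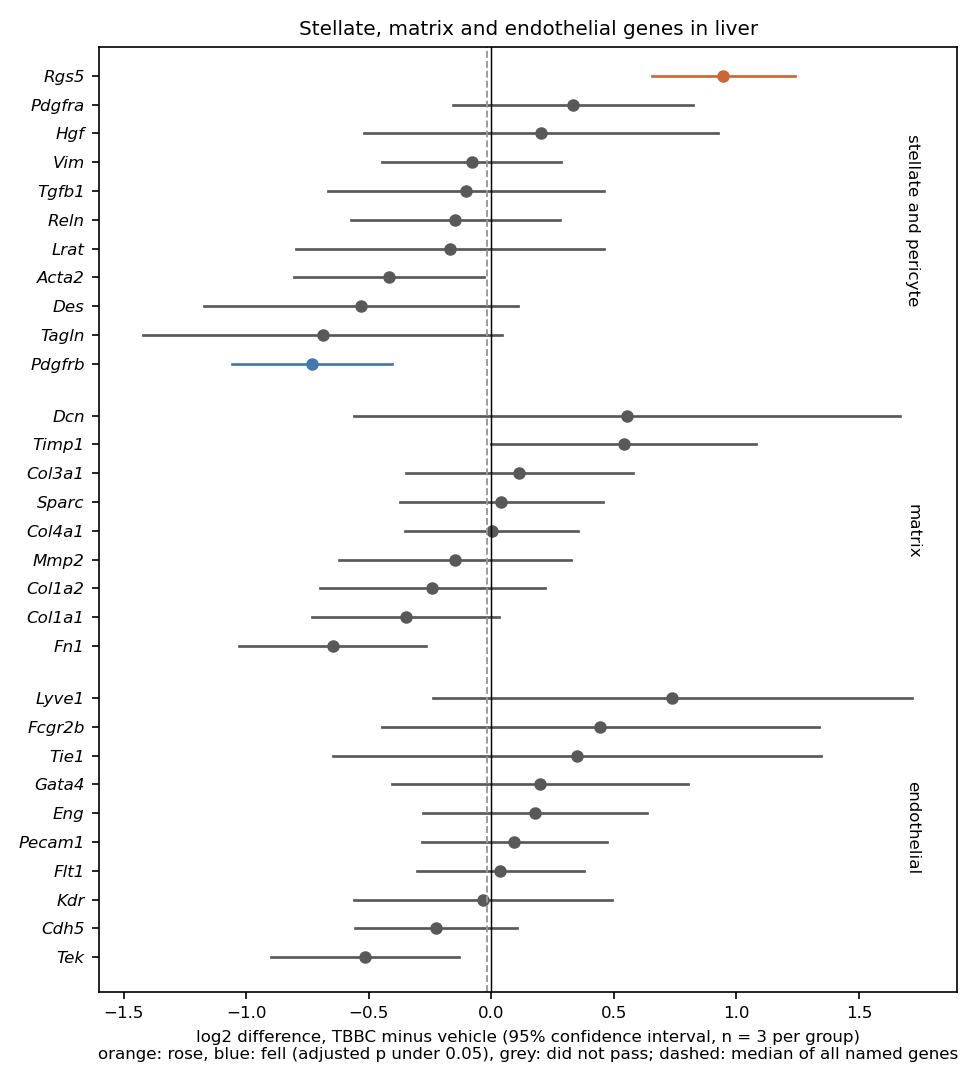
Each point is the log2 difference (TBBC minus vehicle) of 1 of the 30 tested genes, with its 95% confidence interval, by class; orange marks the gene that rose, blue the gene that fell, grey those that did not pass, and the dashed line the median of all named genes. Rgs5 at 0.95 and Pdgfrb at -0.73 stand at the ends, and the intervals of 25 genes include 0.

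The arrays set how small a change could be seen. Standard errors of the 30 genes ran from 0.12 for Rgs5 to 0.47 for Dcn, with a median of 0.19, against 0.15 for named genes as a whole. The 95% interval lay wholly within 1 log2 unit of 0 for 20 of the 30. For the other 10, which include Lyve1, Tie1, Fcgr2b, Dcn, Tagln and Des, a change of 2-fold or more lay within the interval. A gene that did not pass is therefore not shown to be unaltered.

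Among stellate and pericyte genes 9 of 11 missed the threshold, Rgs5 rose and Pdgfrb fell; 8 of the 11 differences were negative, with a median of -0.15 (range -0.73 to 0.95). The sign of that median depended on scaling and on 1 animal: it was 0.063 with spike-in scaling, 0.021 without TBBC replicate 2 and -0.31 without TBBC replicate 3. Rgs5 stood at -1.70, -1.51 and -1.49 in the vehicle animals and at -0.67, -0.72 and -0.48 in the TBBC animals. Every TBBC value was above every vehicle value, and the means were -1.57 ± 0.11 and -0.62 ± 0.13 (SD, n = 3 each). The difference was 0.95 ± 0.12 (SE; 95% interval 0.65 to 1.24; adjusted p = 0.0213, limma). It was between 0.75 and 1.16 under all 18 alternative settings. Without any 1 of the 6 arrays it stayed at 0.88 to 1.0 but missed the threshold each time (adjusted p = 0.0525 to 0.0809), and without the filter on dim probes the adjusted p was 0.0610.

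Pdgfrb read 0.53, 0.60 and 0.34 in the vehicle animals and -0.12, -0.44 and -0.17 in the TBBC animals. The groups did not overlap, and the difference was -0.73 ± 0.14 (SE; 95% interval -1.06 to -0.40; adjusted p = 0.0461, limma). A second Pdgfrb probe read 0.17, 0.06 and -0.20 with vehicle and -0.43, -0.85 and -0.56 with TBBC. It too was lower in every TBBC animal, by -0.62. The call sat close to the threshold: with 1 array left out the adjusted p was 0.0754 to 0.140, under median centring and spike-in scaling it was 0.0571 and 0.142, with the mean of both probes 0.0644 and without the filter on dim probes 0.117. The sign was negative in all 18 alternatives. Pdgfra, the other receptor of this family and a marker of fibroblasts and resting stellate cells, read 0.86, 0.66 and 0.71 with vehicle and 0.63, 1.29 and 1.3 with TBBC. TBBC replicate 1 lay below all vehicle animals and the other TBBC animals above them, and the difference of 0.33 ± 0.20 did not pass (adjusted p = 0.367).

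**Figure D2:**
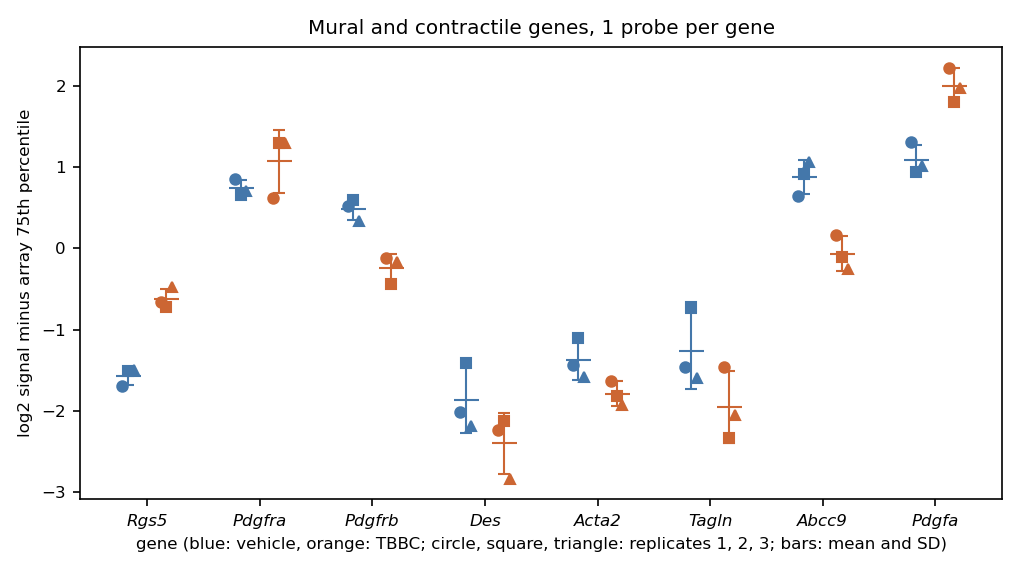
Log2 signal relative to the array's 75th percentile in each animal (vertical axis) for 6 stellate or pericyte members, for Abcc9 and for Pdgfa; circle, square and triangle are replicates 1, 2 and 3 of a group, and bars are the mean and SD. The groups are apart for Rgs5, Pdgfrb, Acta2, Abcc9 and Pdgfa and overlap for Pdgfra, Des and Tagln.

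The members Acta2, Tagln, Des and Vim, genes of the contractile or activated state, had negative differences, and none passed. Acta2, smooth muscle alpha-actin, read -1.43, -1.10 and -1.59 with vehicle and -1.63, -1.82 and -1.93 with TBBC. Its groups were apart by a narrow margin, with a difference of -0.42 ± 0.16 (95% interval -0.81 to -0.03; adjusted p = 0.195). Tagln, the actin-binding protein transgelin, read -1.46, -0.72 and -1.6 with vehicle and -1.46, -2.33 and -2.06 with TBBC. Its difference was -0.69 ± 0.31 (adjusted p = 0.240), and TBBC replicate 1 lay among the vehicle values. Des, the muscle-type intermediate filament desmin that marks rat stellate cells, read -2.02, -1.41 and -2.19 with vehicle and -2.24, -2.13 and -2.84 with TBBC. Its groups overlapped, with a difference of -0.53 ± 0.27 (adjusted p = 0.287). In all 3 genes vehicle replicate 2 was the highest of the 6 animals. Without that animal the differences were smaller in size, at -0.28 for Acta2, -0.42 for Tagln and -0.30 for Des (adjusted p = 0.363, 0.456 and 0.541). Leaving out other arrays gave values up to -0.53 for Acta2, -0.93 for Tagln and -0.69 for Des in size, and none passed. Vim, the broad mesenchymal filament vimentin, differed by -0.08 ± 0.15 (adjusted p = 0.776), and its TBBC values (-0.05, -0.22 and 0.30) lay on both sides of the vehicle values.

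Markers of the resting stellate cell did not pass either. Lrat, the enzyme that esterifies retinol for storage, read 2.11, 1.97 and 1.70 with vehicle and 1.75, 1.25 and 2.26 with TBBC. The TBBC animals covered the whole vehicle range, and the difference was -0.17 ± 0.26 (adjusted p = 0.722). Its dimmer second probe gave -0.32. Reln, a secreted glycoprotein of stellate cells, read 2.00, 1.47 and 1.85 against 1.79, 1.41 and 1.69, with a difference of -0.15 ± 0.18 (adjusted p = 0.645). Its other probes gave -0.08 and -0.00. Of the secreted factors, Hgf, the hepatocyte growth factor made by stellate cells, differed by 0.20 ± 0.30 (adjusted p = 0.710). Its TBBC values were -1.73, -1.15 and -0.48 around vehicle values of -1.45, -1.26 and -1.25. Tgfb1, the main profibrotic cytokine, differed by -0.10 ± 0.24 (adjusted p = 0.815), with TBBC replicate 3 at -2.63 and the other TBBC animals at -3.42 and -3.41. For both factors the spread among TBBC animals (SD 0.63 and 0.45) exceeded that among vehicle animals (0.11 and 0.16).

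**Figure D3:**
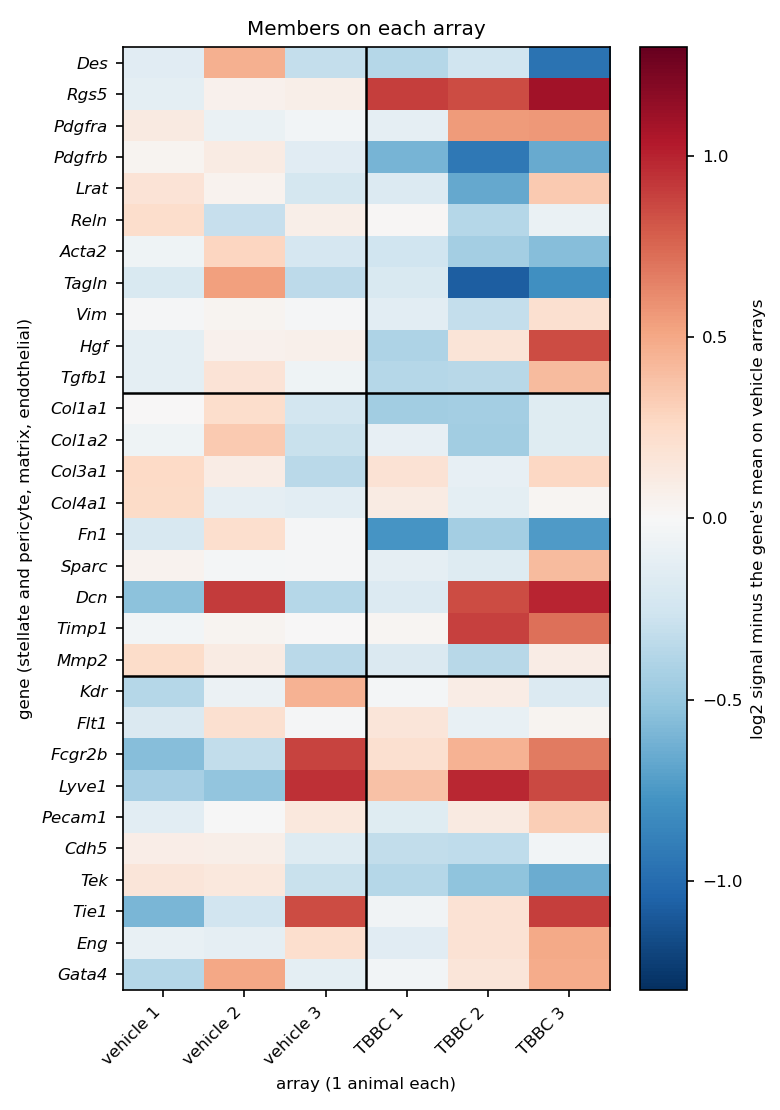
Heat map of the 30 tested genes (rows, by class) in the 6 animals (columns), coloured by log2 signal minus the gene's vehicle mean. Rgs5 is raised and Pdgfrb lowered in all 3 TBBC columns, while most other rows are mixed within a group.

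None of the 9 matrix genes passed at an adjusted p of 0.05 with limma, and 1, Fn1, had an unadjusted p under 0.05. Their median difference was 0.00 (range -0.65 to 0.55), with 5 positive and 4 negative, and the median ran from -0.14 to 0.065 when 1 array was left out. Fn1, the adhesive glycoprotein fibronectin, which hepatocytes also secrete into plasma, had the largest difference. It read 6.91, 7.34 and 7.11 with vehicle and 6.36, 6.69 and 6.38 with TBBC. Every TBBC animal was below every vehicle animal, and the difference was -0.65 ± 0.16 (95% interval -1.03 to -0.27; adjusted p = 0.0856). The other Fn1 probes gave -0.81 and -0.54, each with groups that did not overlap. Across the 18 alternatives Fn1 was always negative and never passed (adjusted p = 0.0512 to 0.247). The summed linear signal of the hepatocyte markers, relative to the 75th percentile, was also lower, at 7022 to 8206 in vehicle animals and 6197 to 6386 in TBBC animals, with 11 of 15 markers negative. Its part in the Fn1 difference was not tested.

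The fibrillar collagens showed no common direction. Col1a1 read 0.68, 0.90 and 0.43 with vehicle and 0.22, 0.23 and 0.51 with TBBC, a difference of -0.35 ± 0.16 (adjusted p = 0.249). Its other probes gave -0.51 and -0.33, and on them vehicle replicate 2 stood well above the other animals at 1.29 and 1.01. Col1a2, the second chain of type I collagen, differed by -0.24 ± 0.19 (adjusted p = 0.477) and read 3.35, 3.75 and 3.12 against 3.30, 2.96 and 3.25. Vehicle replicate 2 was the highest of the 6 animals there as well. Col3a1, the type III chain, differed by 0.11 ± 0.19 (adjusted p = 0.748). Col4a1, a basement membrane chain, had the same mean of 3.16 in each group (95% interval of the difference -0.35 to 0.35), and its other probes gave -0.04, 0.11 and 0.22.

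Of the other matrix proteins, Sparc, a collagen-binding matricellular protein, differed by 0.04 ± 0.17 (adjusted p = 0.904), with TBBC replicate 3 at 5.36 and the other 5 animals between 4.79 and 4.99. Dcn, the small proteoglycan decorin, had the largest fitted standard error of the 30. It read -1.0, 0.44 and -0.84 with vehicle and -0.65, 0.38 and 0.53 with TBBC, and the difference of 0.55 ± 0.47 did not pass (adjusted p = 0.50). Timp1, the inhibitor of metalloproteinases that rises in fibrotic liver, read 1.22, 1.29 and 1.26 with vehicle and 1.28, 2.14 and 1.97 with TBBC. TBBC replicates 2 and 3 were well above the tight vehicle group and TBBC replicate 1 was within it, so that the difference was 0.54 ± 0.23 (95% interval -0.00 to 1.08; adjusted p = 0.219). Without TBBC replicate 1 it was 0.80 (adjusted p = 0.0611), and without TBBC replicate 2 it was 0.37 (adjusted p = 0.433). Mmp2, the gelatinase of stellate cells, differed by -0.15 ± 0.20 (adjusted p = 0.674), and its second probe gave -0.13.

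No endothelial gene passed among the 10 tested with limma, and 1, Tek, had an unadjusted p under 0.05. Of the differences 7 were positive and 3 negative, with a median of 0.14 (range -0.52 to 0.74), beside -0.02 over all named genes. That median was 0.019 without vehicle replicate 1, 0.037 without TBBC replicate 3, 0.27 without TBBC replicate 1 and 0.35 with spike-in scaling. The largest positive values were those of Lyve1 and Fcgr2b, scavenging genes of the sinusoid, while Stab1 and Stab2 of this class had no probe. Lyve1, a hyaluronan receptor, read 1.02, 0.94 and 2.41 with vehicle and 1.84, 2.43 and 2.31 with TBBC. Vehicle replicate 3 lay with the TBBC animals and apart from its own group, and the difference of 0.74 ± 0.41 did not pass (95% interval -0.24 to 1.71; adjusted p = 0.323). Fcgr2b, the Fc receptor that clears immune complexes, read 2.28, 2.52 and 3.71 with vehicle and 3.04, 3.28 and 3.51 with TBBC. Again vehicle replicate 3 stood high, here above all TBBC animals, and the difference was 0.44 ± 0.37 (adjusted p = 0.50). The second probes gave 0.47 for Lyve1 and 0.20 for Fcgr2b. Without vehicle replicate 3 the differences were 1.21 for Lyve1 (adjusted p = 0.0695) and 0.88 for Fcgr2b (adjusted p = 0.0868), while without another array they were 0.48 for Lyve1 (without vehicle replicate 2; adjusted p = 0.589) and 0.17 for Fcgr2b (without vehicle replicate 1; adjusted p = 0.826). Neither passed in any of the 18 alternatives.

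**Figure D4:**
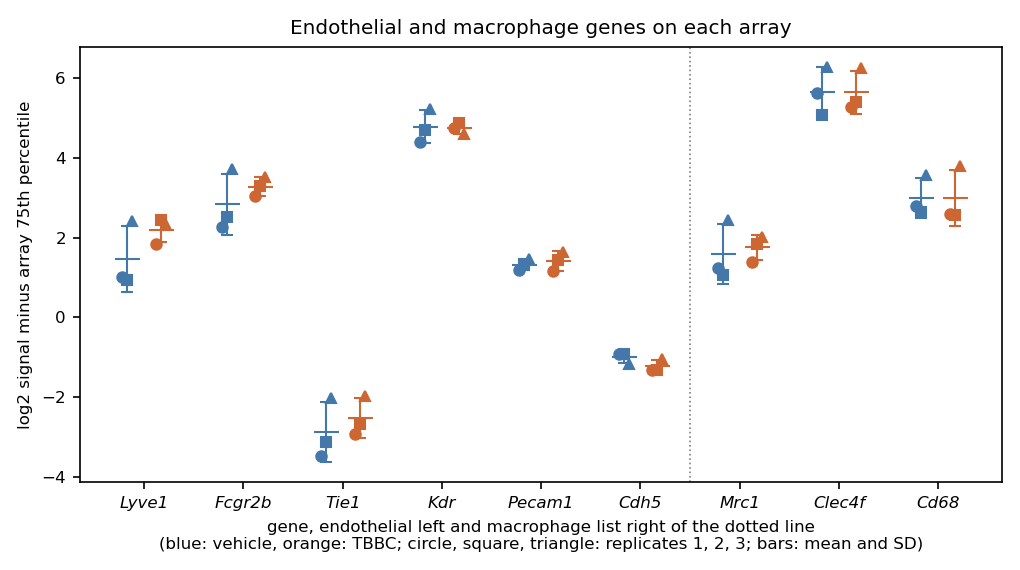
Log2 signal relative to the array's 75th percentile in each animal for 6 endothelial members and 3 macrophage markers (Mrc1, Clec4f, Cd68); circle, square and triangle are replicates 1, 2 and 3, and bars are the mean and SD. In Lyve1, Fcgr2b and Tie1, as in Clec4f, the triangle of vehicle replicate 3 lies above the other vehicle animals. Mrc1 is also on the list of other endothelial genes.

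The vascular growth factor receptors were close to level. Kdr, the main receptor of vascular endothelial growth factor A, read 4.40, 4.70 and 5.23 with vehicle and 4.75, 4.88 and 4.60 with TBBC, a difference of -0.03 ± 0.22 (adjusted p = 0.937). Flt1, a second receptor of that family, differed by 0.04 ± 0.14 (95% interval -0.30 to 0.38; adjusted p = 0.899), and its other probes gave 0.19 and 0.09. Tie1, an orphan receptor of the angiopoietin system, read -3.46, -3.12 and -2.02 with vehicle and -2.91, -2.68 and -1.96 with TBBC. Replicate 3 was the highest animal of each group, and the difference was 0.35 ± 0.42 (adjusted p = 0.637).

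Tek, the angiopoietin receptor Tie2, gave opposite answers from its 2 probes. The brighter one read -3.11, -3.12 and -3.55 with vehicle and -3.64, -3.78 and -3.91 with TBBC, a difference of -0.52 ± 0.16 (adjusted p = 0.134). The dimmer one read -4.53, -3.87 and -4.20 with vehicle and -3.73, -3.84 and -3.28 with TBBC, a difference of 0.58. Each probe separated the groups, in opposite directions, so no direction is given for Tek, and the mean of both probes differed by 0.03. Cdh5, the adherens junction cadherin of endothelium, also had probes of opposite sign, at -0.23 ± 0.14 (adjusted p = 0.362) and 0.09. Pecam1, a junction protein of all endothelium, differed by 0.09 ± 0.16 (adjusted p = 0.745), with 0.68 on a probe that was not well above background on every array. Eng, the co-receptor endoglin, differed by 0.18 ± 0.19 (adjusted p = 0.601). Gata4, the transcription factor that specifies sinusoidal endothelium and is also made by stellate cells, differed by 0.20 ± 0.25 (adjusted p = 0.659).

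**Figure D5:**
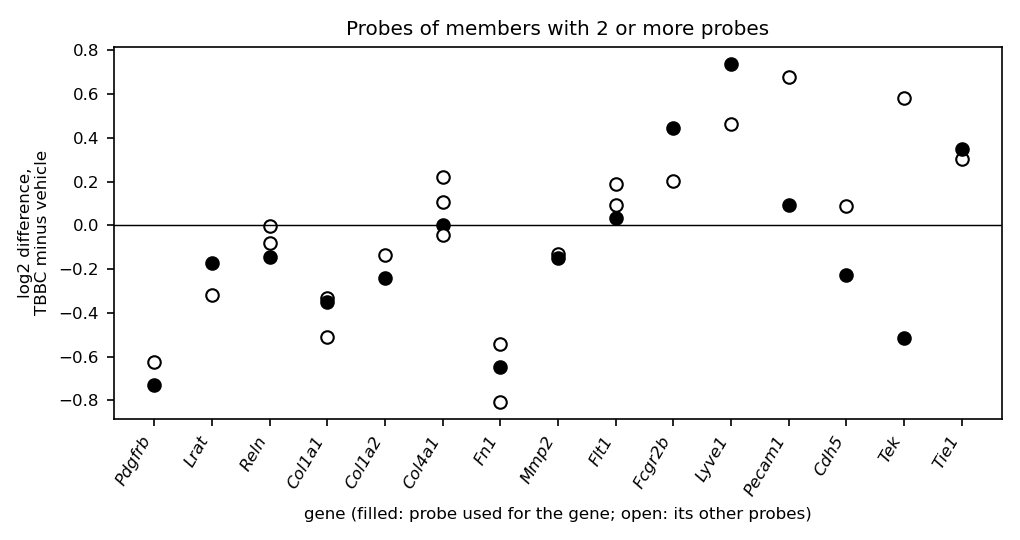
Log2 difference (TBBC minus vehicle) of each probe of the 15 members with 2 or more probes; the filled point is the probe used for the gene. All probes shared a sign in 12 members, and signs differed in Col4a1, Cdh5 and Tek.

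Animals within a group differed together, a pattern singled out after the values were seen. Vehicle replicate 3 was the highest vehicle animal for 6 of 10 endothelial members and for 25 of 38 other endothelial genes (65.8%), against 33.5% of all named genes. TBBC replicate 3 was the highest TBBC animal for 6 of 10 endothelial members and 20 of the 38 (52.6%), against 30.6%. Its lead was not particular to endothelium, as it was also highest for 6 of 11 stellate and pericyte members (54.5%) and 5 of 9 matrix members (55.6%). In those 2 classes vehicle replicate 2 led the vehicle group, for 54.5% and 55.6% of members, against 36.3% of all named genes. For macrophage markers vehicle replicate 3 was highest in 14 of 15 and TBBC replicate 3 in 14 of 15. Mrc1 counts both among these 15 and among the 38 other endothelial genes. The summed linear signal of those 15 markers was 154, 123 and 246 in vehicle animals and 137, 138 and 261 in TBBC animals, relative to the 75th percentile. The macrophage list itself had 10 positive and 5 negative differences and none that passed, nor any with an unadjusted p under 0.05. Clec4f, the lectin that defines Kupffer cells, differed by -0.02 ± 0.37 (adjusted p = 0.979) and C1qb, a complement subunit of macrophages, by -0.07 ± 0.38 (adjusted p = 0.926). On this list Itgam and Ccr2, markers of recruited monocytes, were not well above background on all arrays of either group, and Timd4 and Spic had no probe. The part of these cells in the spread of the endothelial genes was not tested.

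The endothelial sum, in which Kdr weighed most, did not follow the macrophage sum in the TBBC group. Summed over the 10 members it was 33.3, 40.2 and 62.1 in vehicle animals and 44.2, 50.8 and 48.2 in TBBC animals. Vehicle replicate 3 exceeded all TBBC animals, and TBBC replicate 2, not 3, was the highest of its group. Kdr, the brightest of the 10, was likewise highest in TBBC replicate 2 (4.75, 4.88 and 4.60), and the sum without it was not computed. The median deviation of the 10 members from their vehicle means, which does not weigh genes by brightness, ran otherwise. It was -0.04, 0.13 and 0.40 in TBBC animals, highest in replicate 3. For stellate and pericyte genes the sums were 14.4, 13.2 and 12.6 with vehicle and 12.2, 11.0 and 14.9 with TBBC, and the groups overlapped. The matrix sum was 194, 235 and 201 with vehicle and 149, 166 and 166 with TBBC; its groups did not overlap. Without Fn1, left out after the values were seen, it was 73.3, 72.4 and 62.3 with vehicle and 67.0, 62.7 and 82.4 with TBBC, and the groups overlapped. Set against the median of all features, the class medians were -0.09 for stellate and pericyte genes, 0.06 for matrix and 0.20 for endothelium. Those distances are left as they are by any shift of whole arrays. The SDs of the class medians among animals of a group, 0.21, 0.16 and 0.23, were each larger than those distances. These SDs describe single animals, not the error of a difference between groups of 3, and the class medians were not tested.

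Further genes of the same cells and pathways were read from longer lists. Among 22 tested stellate cell markers outside the 37, 1 fell and none rose (2 with an unadjusted p under 0.05). The differences were negative in 14 and positive in 8, with a median of -0.03. The one that fell was Abcc9, the sulfonylurea receptor subunit of the potassium channel in pericytes. It read 0.65, 0.92 and 1.06 with vehicle and 0.17, -0.10 and -0.25 with TBBC, a difference of -0.94 ± 0.17 (adjusted p = 0.0405). Abcc9, like Pdgfrb, was lower in every TBBC animal, whereas Rgs5 was higher in every one. Without 1 array its difference was -1.06 to -0.84, with an adjusted p of 0.0612 to 0.130. With spike-in scaling it was -0.73 (adjusted p = 0.114), and without the filter on dim probes the adjusted p was 0.10. Kcnj8, the pore subunit of the same channel, chosen after its value was seen, differed by -0.01. Cspg4, of the same list and chosen in the same way, had its largest difference, at -1.27 ± 0.44 (adjusted p = 0.159, limma). Its groups overlapped, and its probe was well above background on only 1 of the TBBC arrays.

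Of the PDGF, HGF, VEGF and angiopoietin ligands and co-receptors, 13 were tested, 1 rose and none fell (4 with an unadjusted p under 0.05). The differences were positive in 6 and negative in 7, with a median of -0.13. The one that rose was Pdgfa, a ligand that binds the alpha receptor. It read 1.31, 0.94 and 1.01 with vehicle and 2.23, 1.80 and 1.98 with TBBC, a difference of 0.92 ± 0.16 (adjusted p = 0.0405). Each TBBC animal exceeded each vehicle animal, by a 1.89-fold change in the means. Leaving out 1 array gave 0.80 to 1.03 with an adjusted p of 0.0862 to 0.112; the mean of its probes gave 0.74 (adjusted p = 0.0674), and without the filter on dim probes the adjusted p was 0.10. Vegfb, a growth factor of the vascular endothelial family, was closest to the threshold among the others at 0.63 ± 0.13 (adjusted p = 0.0552), and it was chosen after its value was seen. Pgf, chosen in the same way, went the other way at -0.92 ± 0.21 (adjusted p = 0.0705), with every TBBC animal below every vehicle animal. Its probe was well above background on only 2 of the TBBC arrays. Pdgfb and Pdgfd, which act on the beta receptor, were not well above background on all arrays of either group.

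None of 32 tested genes of TGF-beta and BMP signalling passed with limma (4 with an unadjusted p under 0.05), and 23 of the 32 were negative, with a median of -0.14. Tgfbi, a matrix protein induced by TGF-beta, differed by -0.19 ± 0.13 (adjusted p = 0.416), and Gdf2, the circulating ligand BMP9 made by stellate cells, by 0.00 ± 0.17 (adjusted p = 0.998). Named after their values were seen, Tgfbr1, the type I receptor of TGF-beta, differed by -0.55 ± 0.13 (adjusted p = 0.0844), Inhba, the activin A subunit, by -1.35 ± 0.34 (adjusted p = 0.0902) and Smad7, the inhibitory SMAD, by -0.96 ± 0.25 (adjusted p = 0.0929). In each of these 3 every TBBC animal lay below every vehicle animal. Tgif1, of the same list and also named after its value was seen, went the other way at 0.55 ± 0.17 (adjusted p = 0.127). Every TBBC animal lay above every vehicle animal there. Over the whole list the groups did not overlap for 15.6% of genes, fewer than the 31.2% of named genes. Of 17 tested contractile and myofibroblast genes none passed (3 unadjusted), 10 were negative and the median was -0.18. Tpm1, a tropomyosin, differed by 0.31 ± 0.10 (adjusted p = 0.157) and Mgp, matrix Gla protein, by -0.18 ± 0.22 (adjusted p = 0.647). Also positive, and named after their values were seen, were Ccn1, a matricellular protein, at 0.61 ± 0.24 (adjusted p = 0.197) and Itga8, an integrin of stellate cells, at 0.73 ± 0.30 (adjusted p = 0.213). Postn, Fap, Tnc, Cnn1 and Lmod1, genes of activated fibroblasts and smooth muscle, were not well above background on all arrays of either group and so were not tested.

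Among 24 other matrix components none passed (1 unadjusted). There 19 of 24 were negative, with a median of -0.19, beside 52.5% negative over all named genes. Vtn, the plasma adhesion protein vitronectin made by hepatocytes, differed by -0.27 ± 0.12 (adjusted p = 0.246) and Bgn, the proteoglycan biglycan, by -0.13 ± 0.13 (adjusted p = 0.578). Among 24 genes of collagen processing and matrix turnover none passed (3 unadjusted), 11 were positive and 13 negative, with a median of -0.00. Mmp15, a membrane-bound metalloproteinase, differed by -0.13 ± 0.13 (adjusted p = 0.583) and P4hb, a subunit of prolyl 4-hydroxylase, by 0.21 ± 0.17 (adjusted p = 0.504). Among 38 other endothelial genes none passed (6 unadjusted), 22 were positive and 16 negative, with a median of 0.06. Dnase1l3, a nuclease of sinusoidal endothelium, differed by -0.08 ± 0.29 (adjusted p = 0.883) and S1pr1, the sphingosine 1-phosphate receptor, by -0.30 ± 0.18 (adjusted p = 0.357). Icam1, a leukocyte adhesion molecule named after its value was seen, came closest at 0.70 ± 0.14 (adjusted p = 0.0560). The rest of the 6 with an unadjusted p under 0.05 went both ways. Nos3 was positive at 0.92, while Pdpn (-0.62), Sox7 (-0.61), Cd34 (-0.51) and Vcam1 (-0.26) were negative.

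Markers of other liver cells were read beside these genes. Of 9 tested cholangiocyte markers 2 rose: Epcam, the epithelial adhesion molecule, by 1.83 ± 0.21 (adjusted p = 0.0147) and Anxa4, an annexin, by 0.76 ± 0.12 (adjusted p = 0.0329). Their summed signal was 3.61 to 3.95 in vehicle animals and 6.40 to 7.89 in TBBC animals. Without Epcam and Anxa4, left out after the values were seen, the other 7 markers summed to 1.16, 0.999 and 1.52 with vehicle and 1.27, 1.35 and 1.33 with TBBC, and the groups overlapped. Of 4 tested mesothelial markers 1 rose, Krt8, by 1.43 ± 0.15 (adjusted p = 0.0114), a keratin that hepatocytes also make. The other 3 were negative and did not pass, with Gpm6a at -1.58 ± 1.77, Msln at -0.63 ± 0.37 and Upk1b at -0.60 ± 0.51. The Gpm6a value came from TBBC replicate 3: it read -0.20, -0.79 and -1.76 with vehicle and -0.52, -0.02 and -6.94 with TBBC. Its probe was well above background on only 2 of the TBBC arrays. Wt1 and Cdh11 were not well above background on all arrays of either group. Of 15 hepatocyte markers 1 fell, Ahsg, the plasma protein fetuin-A, by -0.83 ± 0.12 (adjusted p = 0.0292). With 1 array left out Anxa4 missed the threshold each time (0.68 to 0.82; adjusted p = 0.0785 to 0.102), Ahsg in 5 of 6 fits, and Epcam and Krt8 in 1 of 6 each. None of 17 T, B and NK cell markers passed (2 unadjusted) and 16 were negative, with Cd7 at -0.20 ± 0.16 (adjusted p = 0.477) and Gzma at -0.60 ± 0.27 (adjusted p = 0.244). None of 7 erythroid and platelet markers passed (1 unadjusted), with Hba-a1 at 0.08 ± 0.24 (adjusted p = 0.861) and Hbb at 0.05 ± 0.21 (adjusted p = 0.901). The part of any of these cells in the differences of Rgs5, Pdgfrb, Abcc9 and Pdgfa was not tested.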

How the data were processed

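Each liver was measured on 1 Agilent array, 3 animals per group. Per the file headers, the authors extracted spot intensity on a linear scale with Agilent Feature Extraction 10.7.1.1 (10.7 per the submitters' processing notes), which writes a background-subtracted processed intensity and flags for outlier spots and spots well above background. The deposited value table equals that intensity times 1 constant per array, so it is linear and uncentred (column medians 0.101, 0.108, 0.103, 0.0977, 0.0972 and 0.0974 for vehicle 1 to 3 and TBBC 1 to 3). It served as an alternative.

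Control spots and 25 probes with an outlier flag were dropped. The processed intensity was put on a log2 scale and each array's 75th percentile was subtracted. A probe was kept (37222 in all) when every array of the vehicle or the TBBC group flagged it as well above background. Probes were named through unversioned RefSeq accessions in a GRCr8 gene table (28206 of 61537 matched), with 1 probe per gene, that of highest mean. The contrast was fitted in R 4.3.3 by limma 3.58.1 (lmFit, eBayes, two-sided, 11235 genes and 18091 unnamed probes adjusted together), which was tested on simulated data. The spread behind each p-value is that between separate animals, as far as the labels tell.

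Every member is named. Of each other list the rule was to name the genes past the threshold, at most 4, or otherwise the 2 of highest mean signal. Further genes of these lists are named outside that rule, with their values already seen or as not measured. Members and lists were chosen with earlier results of these data known. Alternatives were other scalings (quantile, median, spike-in), normexp background correction, the value table, other probe filters and summaries, array weights, limma with trend and robust, a block for the replicate number, and leaving out each array.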

Additional observations from a re-analysis of the deposited data

How the results depend on the processing

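Every alternative listed in advance was run. With limma, 902 features passed; the count was 1593 with normexp, 194 without a filter on dim probes, 211 with the replicate number as a block and 120 to 355 without 1 array. Of the 2 members called, 1 passed under median centring, spike-in scaling or the mean of probes (Rgs5 each time), and 0 without the filter, with the replicate block or without any 1 array (3 to 10 then had an unadjusted p under 0.05). The pathway lists had 2 calls; these became 4 under median centring, the all-array filter, trend and robust, or array weights, 6 with normexp, 1 with the mean of probes, and 0 without the filter, with the block or without any 1 array (17 to 33 unadjusted). The deviations of same-numbered animals correlated at 0.00, -0.02 and 0.14 for replicates 1 to 3; only the replicate 3 pair deviated together, so the numbers were not taken as pairing the animals. With spike-in scaling the class medians were 0.063 (stellate and pericyte, from -0.15), 0.21 (matrix, from 0.00) and 0.35 (endothelial, from 0.14); without 1 array they ran from -0.31 to 0.021, -0.14 to 0.065 and 0.019 to 0.27.

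Genes that passed in no setting changed sign as follows; the cause was not tested. With quantile normalization Col4a1 was -0.032 and Gdf2 -0.023. With median centring Vim was 0.016, Kdr 0.061, Dnase1l3 0.014, Clec4f 0.076 and C1qb 0.026. With spike-in scaling Lrat was 0.040, Reln 0.063, Vim 0.13, Tgfb1 0.11, Mmp2 0.061, Kdr 0.17, Mgp 0.029, Tgfbi 0.021, Bgn 0.084, Mmp15 0.083, Dnase1l3 0.13, Clec4f 0.19, C1qb 0.14 and Cd7 0.013. With normexp Vim was 0.030, Flt1 -0.078, Clec4f 0.071 and Hba-a1 -0.045. With the mean of probes Tek was 0.033, Gdf2 -0.021, Bgn 0.13 and Mmp15 0.058. With array weights Col4a1 was -0.089, Kdr 0.091, Gdf2 -0.081, Dnase1l3 0.083, Clec4f 0.012 and C1qb 0.031. Without 1 array, ranges that crossed 0 were Lrat -0.42 to 0.080, Vim -0.22 to 0.033, Hgf -0.12 to 0.51, Tgfb1 -0.36 to 0.030, Col3a1 -0.064 to 0.24, Col4a1 -0.067 to 0.13, Sparc -0.14 to 0.14, Kdr -0.22 to 0.19, Flt1 -0.059 to 0.14, Pecam1 -0.021 to 0.22, Gdf2 -0.12 to 0.13, Dnase1l3 -0.30 to 0.21, Clec4f -0.33 to 0.29, C1qb -0.43 to 0.23, Hba-a1 -0.19 to 0.24 and Hbb -0.14 to 0.20. Precision is limited by having 6 arrays.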
